A study of Mus musculus with 13 samples.

Results

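The 10 genes described here encode proteins that fold, or degrade, proteins inside mitochondria, and transcription factors of the integrated stress response. They are the chaperones Hspe1, Hspd1, Hspa9 and Trap1, the protease genes Lonp1, Clpp and Clpx, and the transcription factor genes Atf4, Atf5 and Ddit3. They were chosen by name and not by their values, though earlier results of these data were known. All 10 were found among the 54232 genes of the deposited count table. They were also kept among the 20143 genes with enough reads to be tested. The samples were 13 pools, each of 25 mouse oocytes, in 4 groups that cross maturation stage with genotype. Germinal vesicle (GV) oocytes are arrested in the first meiotic prophase, and metaphase II (MII) eggs have completed maturation and await fertilization. The strain is labelled C57BL6/J for all groups, and wild-type (WT) pools were compared with Null pools. In Null pools the oocyte long noncoding RNA Sirena1 is strongly reduced, in animals homozygous for a Cas9 deletion of its promoter (Sirena1-/-), descended from crosses to C57BL/6NCrl. There were 3 GV WT, 3 GV Null, 3 MII WT and 4 MII Null pools. GV oocytes were collected in M2 medium with 0.2 mM IBMX, which keeps them arrested, and MII eggs were collected 12 to 14 h after an injection of hCG. The protocol names superovulated C57Bl6/J or C57BL/6NCrl mice without saying which gave which pool, and the labels state no ages. Nothing in the labels says that pools came from separate females, so p-values measure the spread between these samples, which may be technical.

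Proteins imported into the mitochondrial matrix are pulled in by the mitochondrial Hsp70 (Hspa9) and folded by the chaperonin, a barrel of Hsp60 subunits (Hspd1) closed by a lid of Hsp10 (Hspe1). Trap1 is the mitochondrial member of the Hsp90 family. Proteins that fail to fold are degraded by the Lon protease (Lonp1) or by a complex of the unfoldase Clpx with the peptidase Clpp. When mitochondria or the endoplasmic reticulum (ER) are stressed, kinases phosphorylate the initiation factor eIF2, general translation slows, and translation of Atf4 and Atf5 mRNA increases. Atf4 then activates genes of amino acid supply and Ddit3, which encodes the transcription factor CHOP. Oocytes carry many mitochondria and pass them to the embryo. Between the GV and the MII stage they make almost no new mRNA, and many stored mRNAs are translated or degraded.

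Hspe1 and Hspd1 lie head to head on chromosome 1 (GRCm38.p6), Hspe1 on the plus strand at chr1:55088148-55091317 and Hspd1 on the minus strand at chr1:55077833-55088243. Their annotated spans overlap by 96 bp. Whether reads were counted by strand is not given in the sources used here, so reads from the overlap cannot be assigned to one of them with certainty. The stretch between their starts is shown because both genes share it: it holds 2 overlapping matches to a heat shock element, the binding motif of the factor Hsf1, in capitals below. The Hspe1 stretch is chr1:55088050-55088079 on the plus strand, 98 to 69 bases before the Hspe1 start. The Hspd1 stretch is chr1:55088056-55088085 on the minus strand, 153 to 124 bases before the second annotated Hspd1 start (55087932), and it lies inside the Hspd1 gene as counted from its first start (55088243). The Trap1 stretch, chr16:4077839-4077868 on the minus strand, is shown for its cyclic AMP response element (capitals), which no other window of these genes held.
Hspe1: cacggtccgTTCTAGAACCTTCCGGAAggc
Hspd1: cgcggggccTTCCGGAAGGTTCTAGAAcgg
Trap1: gtcgcgcgccaTGACGTCActgagccgccc

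The promoters of Atf4 (chr15:80254934-80255183, plus strand) and Ddit3 (chr10:127290543-127290792, plus strand) are shown because Ddit3 is a described Atf4 target, and the mRNA of one changed with maturation while that of the other did not pass the test. Each is the 250 bases before the start, with CCAAT boxes on either strand in capitals. Whether these letters bear on the difference between the genes was not tested.
Atf4: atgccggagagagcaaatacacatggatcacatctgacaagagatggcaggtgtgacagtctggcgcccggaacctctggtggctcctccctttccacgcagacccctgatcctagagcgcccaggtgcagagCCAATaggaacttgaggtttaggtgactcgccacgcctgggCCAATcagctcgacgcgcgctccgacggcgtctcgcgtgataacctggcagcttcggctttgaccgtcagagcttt
Ddit3: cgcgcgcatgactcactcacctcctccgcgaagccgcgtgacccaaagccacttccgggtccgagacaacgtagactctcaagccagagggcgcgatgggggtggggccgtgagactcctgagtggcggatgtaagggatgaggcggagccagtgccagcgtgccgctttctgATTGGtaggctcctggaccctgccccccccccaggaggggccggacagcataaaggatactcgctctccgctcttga

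Sequences are from RefSeq (GRCm38.p6), which gave 11 promoter windows for 9 of the 10 genes (all but Hspa9). Motifs were searched on both strands in the 250 bases before each start. The heat shock element, searched as GAA, TTC and GAA units with 2 bases between neighbours, was found for Hspe1 and Hspd1 and in 0.466% of 32851 windows of all genes. The cyclic AMP response element TGACGTCA was found for Trap1 and in 1.55% of all windows. The site of nuclear respiratory factor 1, searched as GCGCA and GCGC with 1 base between them, was found for Hspd1 and in 3.74%. The CCAAT box was found for Clpx, Atf4, Atf5 and Ddit3 and in 33.8%. The element TGATGNAA, bound by pairs of CCAAT/enhancer-binding protein and ATF factors, was in no window of these genes and in 3.45% of all windows. The ER stress response element, searched as CCAAT and CCACG with 9 bases between them, was also in none of them and in 0.113% of all. A match describes these letters only. Near matches and sites further upstream were not counted, so an element not found here may still be present. The printed Ddit3 stretch holds, on the minus strand, CCAAT and GCACG with 9 bases between them, close to the ER stress response element searched.

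Total counts per library ran from 30867614 to 41285507, so 3 counts correspond to 0.0672 to 0.105 CPM (counts divided by the library's scaled total). Levels below are CPM scaled with TMM factors, as mean ± SD over pools. They are relative to the other mRNA of the same pool. Each pool was of 25 oocytes, but for other cells in a pool, fewer cells and less RNA per cell cannot be told apart. Sirena1 stood at 3006 ± 90.2 CPM in GV WT and 4519 ± 221 CPM in MII WT, against 24.8 ± 1.58 and 41.3 ± 4.41 CPM in the corresponding Null groups. All 14 oocyte markers were above 0 in every group, with sums of 12630 to 17668 CPM. The 21 cumulus and granulosa markers (cells that surround the oocyte) summed to 639 and 270 CPM in GV Null replicates 2 and 3, against 104 CPM in replicate 1 and 103 to 136 CPM in GV WT, where 20 of them were above 0. In MII pools they summed to 100 to 137 CPM, and 13 of the markers were above 0 in MII WT and 19 in MII Null. Most of the sum in MII WT came from Nr5a2 (mean 60.5 CPM) and Cyp19a1 (36.5 CPM). Group means ran from 54.8 to 72.5 CPM for Nr5a2 and from 26.2 to 36.5 CPM for Cyp19a1. The sums therefore hold a part of similar size in all groups, and are not in proportion to the RNA from surrounding cells. All markers but Cyp19a1 and Has2 had a higher mean in GV Null than in GV WT. For Hsd3b1 the means were 104 against 7.52 CPM, and for Cyp11a1 37.1 against 2.77 CPM. The sums of theca and stroma markers (31.9 CPM), of leukocyte markers (12.4 CPM) and of erythroid markers (2.15 CPM) were highest in GV Null replicate 2. On the first principal component, which held 65.8% of the variance, MII Null replicate 4 lay at 25.7 and the other MII pools at 65.8 to 81.4. GV Null replicates 2 and 3 lay at -108 and -91.1, and the other GV pools at -71.3 to -64.4.

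The measured mRNA of 7 of the 10 genes was lower in MII eggs than in GV oocytes of WT pools. The same 7 were lower in Null pools: Hspe1, Hspd1, Trap1, Lonp1, Clpp, Atf5 and Ddit3. Libraries were of poly(A) RNA, so changes in mRNA amount and changes in poly(A) tails cannot be told apart here. Rises and falls with maturation, here and below, are those of the counted mRNA. None of the 10 passed the test in the higher direction. Among all tested genes, 42.7% passed in WT (22.8% lower and 19.9% higher) and 49% in Null (26.9% lower and 22.1% higher). The balance depends on the scaling: with library totals in place of TMM factors, 5898 genes were lower and 1831 higher in WT, against 4595 and 4014, and 7306 lower and 1985 higher in Null, against 5411 and 4456. The median log2 fold change of the 10 genes was -0.68 in WT, beside 0.0053 over all genes, and -0.63 in Null, beside -0.05. A gene passed at an adjusted p below 0.05 in edgeR's quasi-likelihood test with Benjamini-Hochberg adjustment over all tested genes. Libraries of the stages did not overlap, with MII lower, for 9 of the 10 genes in WT, where 30.1% of all genes did so, and for 7 in Null, where 25.2% did. Without GV Null replicates 2 and 3 the number in Null was also 7, as it was when MII Null replicate 4 was left out as well.

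**Figure D1:**
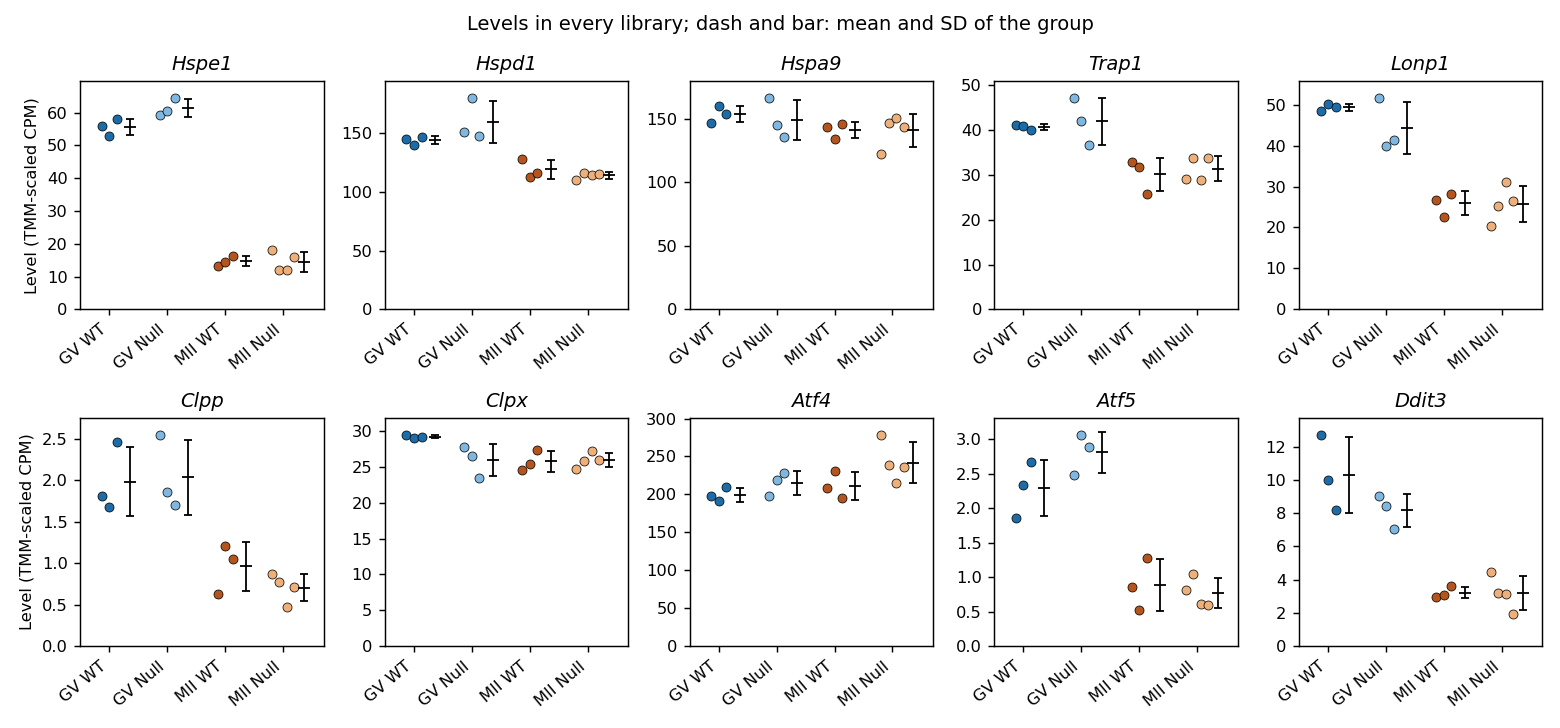
Level of each of the 10 genes (TMM-scaled CPM, linear axis from 0, a scale of its own for each gene) in each of the 13 pools, by group. Points are pools, and the dash with its bar is the mean and SD. MII pools of Hspe1 sit between 11.8 and 17.9 CPM, below all GV pools at 52.9 to 64.5, while the stages overlap for Atf4.

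The lid of the chaperonin fell most among the chaperones. Hspe1 stood at 55.8, 52.9 and 58.0 CPM in the GV WT pools and at 13.3, 14.3 and 16.3 CPM in the MII WT pools. In Null pools it stood at 59.2, 60.5 and 64.5 CPM at the GV stage and at 17.9, 11.8, 11.9 and 15.8 CPM at MII. The highest MII pool thus lay far below the lowest GV pool in both genotypes. The fall was 3.79-fold in WT (log2 fold change -1.92, SE 0.14, edgeR adjusted p = 3.78e-09) and 4.25-fold in Null (-2.09, SE 0.12, edgeR adjusted p = 3.16e-10).

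The barrel subunit fell far less. Hspd1 stood at 145, 140 and 147 CPM in GV WT pools and at 128, 112 and 116 CPM in MII WT pools. In Null pools it stood at 151, 179.8 and 147 CPM at the GV stage and at 109.7, 116, 114 and 115 CPM at MII. The stages did not overlap in either genotype, and GV Null replicate 2, the pool richest in cumulus and granulosa markers, was the highest of all. The fall was 1.21-fold in WT (log2 fold change -0.27, SE 0.08, edgeR adjusted p = 0.0101) and 1.40-fold in Null (-0.48, SE 0.07, edgeR adjusted p = 3.62e-05). The WT call was lost without MII WT replicate 2 (-0.23, adjusted p = 0.0576) and when pseudogene reads were added to the gene (-0.19, adjusted p = 0.0600).

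Both chaperonin genes have processed copies elsewhere in the genome, and the treatment of reads with several matching places is not stated, so their values carry that uncertainty. The 22 Hspd1 pseudogenes together held counts equal to 22.97% to 34.5% of those of Hspd1, nearly all at Hspd1-ps3 (chr11:41498677-41500911), which had 1042 to 1674 counts per pool. Hspd1-ps3 did not pass in maturation (log2 fold change 0.10 in WT and -0.09 in Null). The 6 Hspe1 pseudogenes held counts equal to 4.51% to 7.98% of those of Hspe1. Hspe1-ps2 (-1.72 in WT, -2.01 in Null), Hspe1-ps3 (-2.11 and -2.30) and Hspe1-ps6 (-2.50 and -2.87) all passed as lower, like their parent gene.

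The mRNA of the import motor did not pass the test at maturation. Hspa9 (chr18:34937414-34954351) stood at 154 ± 6.42 CPM in GV WT (n = 3) and 141 ± 6.45 CPM in MII WT (n = 3), a log2 fold change of -0.12 (SE 0.09, edgeR adjusted p = 0.290). In Null it stood at 149 ± 15.6 CPM (n = 3) and 141 ± 13.0 CPM (n = 4), with a log2 fold change of -0.08 (SE 0.08, edgeR adjusted p = 0.437). The 95% interval of the change ran from -0.31 to 0.07 in WT and from -0.26 to 0.09 in Null. With libraries scaled by their totals, which shifts the median of all genes by -0.20 in WT and -0.23 in Null, Hspa9 passed as lower in both genotypes (-0.32 and -0.31).

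Trap1 (chr16:4039971-4077840) fell modestly. It stood at 41.1, 40.98 and 40.01 CPM in GV WT pools and at 32.9, 31.7 and 25.8 CPM in MII WT pools. GV Null pools stood at 47.2, 42.0 and 36.6 CPM and MII Null pools at 29.1, 33.9, 28.8 and 33.8 CPM. No MII pool reached the lowest GV pool of its genotype. The fall was 1.35-fold in WT (log2 fold change -0.43, SE 0.11, edgeR adjusted p = 0.00423) and 1.34-fold in Null (-0.42, SE 0.10, edgeR adjusted p = 0.00268).

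Among the proteases, Lonp1 (chr17:56614297-56626903) and Clpp fell, and Clpx did not pass. Lonp1 stood at 48.5, 50.1 and 49.4 CPM in GV WT pools and at 26.8, 22.6 and 28.2 CPM in MII WT pools. In Null pools it stood at 51.7, 39.99 and 41.4 CPM at the GV stage and at 20.4, 25.1, 31.1 and 26.5 CPM at MII. The stages lay apart in both genotypes, and GV Null replicates 2 and 3 lay below all other GV pools. The fall was 1.91-fold in WT (log2 fold change -0.93, SE 0.13, edgeR adjusted p = 1.85e-05) and 1.72-fold in Null (-0.78, SE 0.12, edgeR adjusted p = 4.02e-05).

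Clpp (chr17:56990264-56996371), the peptidase of the ClpXP complex, rested on few reads: 62 to 104 counts in GV pools and 15 to 35 in MII pools. It stood at 1.81, 1.68 and 2.47 CPM in GV WT and at 0.629, 1.21 and 1.05 CPM in MII WT. In GV Null it stood at 2.55, 1.86 and 1.70 CPM, and in MII Null at 0.866, 0.770, 0.477 and 0.715 CPM. All MII pools lay below all GV pools. The fall was 2.06-fold in WT (log2 fold change -1.05, SE 0.30, edgeR adjusted p = 0.00904) and 2.87-fold in Null (-1.52, SE 0.28, edgeR adjusted p = 0.000219). The WT call was lost without GV WT replicate 3 (-0.86, adjusted p = 0.0552) and without MII WT replicate 1 (-0.82, adjusted p = 0.0550).

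Clpx (chr9:65294251-65330658), the unfoldase that feeds Clpp, stood at 29.2 ± 0.258 CPM in GV WT (n = 3), 25.8 ± 1.49 CPM in MII WT (n = 3), 25.9 ± 2.25 CPM in GV Null (n = 3) and 25.9 ± 0.998 CPM in MII Null (n = 4). Its log2 fold change with maturation was -0.18 in WT (SE 0.09, edgeR adjusted p = 0.121) and -0.00016 in Null (SE 0.09, edgeR adjusted p = 0.999). It passed as lower in both genotypes when libraries were scaled by their totals (-0.38 in WT and -0.23 in Null).

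**Figure D2:**
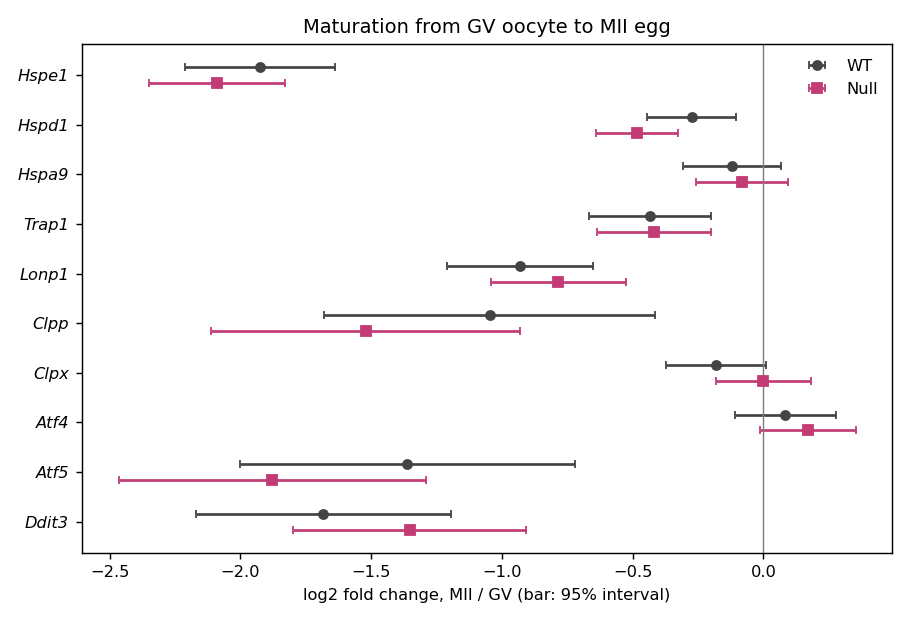
log2 fold change of each of the 10 genes from the GV to the MII stage, in WT (circles) and Null (squares), with 95% intervals of the edgeR fit. The intervals of Hspe1, Hspd1, Trap1, Lonp1, Clpp, Atf5 and Ddit3 lie below 0 in both genotypes.

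The transcription factors did not move together. Atf4 (chr15:80255184-80257545) stood at 198, 191 and 209.6 CPM in GV WT pools and at 209, 231 and 195 CPM in MII WT pools. In Null pools it stood at 198, 219 and 228 CPM at the GV stage and at 279, 239, 214 and 235 CPM at MII. The stages overlapped in both genotypes. The log2 fold change was 0.08 in WT (SE 0.09, edgeR adjusted p = 0.495) and 0.17 in Null (SE 0.09, edgeR adjusted p = 0.115), and with libraries scaled by their totals it was -0.12 and -0.06. When each Null pool was left out in turn, the change in Null ran from 0.06 to 0.22. It was lowest without MII Null replicate 1 (edgeR adjusted p = 0.544), the pool with the most Atf4, and highest without GV Null replicate 3.

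Atf5 (chr7:44812256-44816658), a factor linked to the mitochondrial unfolded protein response, had 83 to 117 counts in GV pools and 15 to 40 in MII pools. It stood at 1.86, 2.33 and 2.67 CPM in GV WT and at 0.861, 0.517 and 1.27 CPM in MII WT. In GV Null it stood at 2.48, 3.07 and 2.89 CPM, and in MII Null at 0.813, 1.05, 0.604 and 0.590 CPM. No MII pool overlapped a GV pool. Atf5 fell 2.57-fold in WT (log2 fold change -1.36, SE 0.30, edgeR adjusted p = 0.00141) and 3.67-fold in Null (-1.88, SE 0.28, edgeR adjusted p = 2.40e-05).

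Ddit3 (chr10:127290793-127296291), which encodes CHOP, stood at 12.7, 10.001 and 8.21 CPM in GV WT and at 2.95, 3.10 and 3.59 CPM in MII WT. In GV Null it stood at 9.04, 8.41 and 7.06 CPM, and in MII Null at 4.46, 3.19, 3.15 and 1.96 CPM. All MII pools lay below all GV pools, and the GV WT pools themselves were widely spread. Ddit3 fell 3.21-fold in WT (log2 fold change -1.68, SE 0.23, edgeR adjusted p = 1.23e-05) and 2.55-fold in Null (-1.35, SE 0.21, edgeR adjusted p = 4.04e-05). The table holds 2 gene IDs under this symbol, and the values are those of ENSMUSG00000025408, as the other had 0 counts in all libraries.

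Proteins that work as partners were compared by the ratio of their raw counts within a library, which needs no scaling between libraries. These pairs were chosen after the values were seen, and the ratio is compared between stages only, since counts were not divided by transcript length. There were 38.4, 37.7 and 39.6 Hspe1 counts per 100 Hspd1 counts in GV WT pools and 39.3, 33.6 and 43.8 in GV Null pools. In MII WT pools there were 10.4, 12.7 and 14.0, and in MII Null pools 16.4, 10.2, 10.4 and 13.7. The lid gene thus lost reads relative to the barrel gene in every MII pool. The ratio fell 3.13-fold (log2 difference -1.64; -1.65 in WT and -1.64 in Null; exact permutation of stage within genotype, two-sided p = 0.00143, the smallest that 700 rearrangements of 6 GV and 7 MII pools can give). Adjusted over the 2 pairs, the exact p was 0.00143 for each. This adjustment does not correct for choosing the pairs after the values were seen, so the p-values only describe the separation of the stages.

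Clpp counts per 100 Clpx counts were 6.15, 5.79 and 8.45 in GV WT pools and 9.18, 7.01 and 7.27 in GV Null pools. They were 2.56, 4.75 and 3.82 in MII WT pools and 3.50, 2.99, 1.75 and 2.75 in MII Null pools. Every MII pool was below every GV pool. The ratio fell 2.38-fold (log2 difference -1.25; -0.90 in WT and -1.54 in Null; exact permutation p = 0.00143, again the smallest possible). Without each pool in turn, the log2 difference of the Hspe1 and Hspd1 ratio ran from -1.71 to -1.60 and that of the Clpp and Clpx ratio from -1.36 to -1.12.

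**Figure D3:**
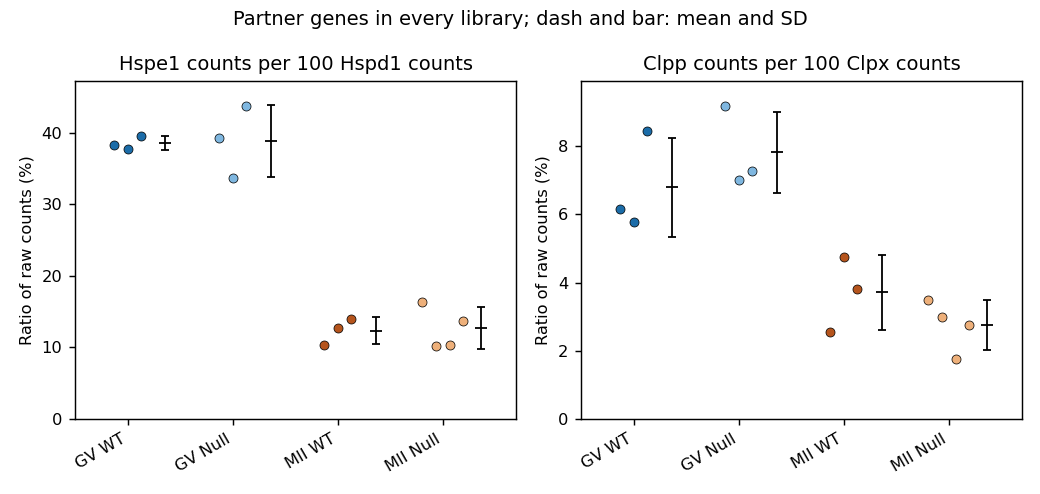
Hspe1 counts per 100 Hspd1 counts (left) and Clpp counts per 100 Clpx counts (right) in each of the 13 pools, on linear axes from 0. Points are pools, and the dash with its bar is the mean and SD of the group. GV pools have 33.6 to 43.8 Hspe1 counts per 100 Hspd1 counts and MII pools 10.2 to 16.4.

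No change between Null and WT was called for any of the 10 genes. At the GV stage 0 of 10 passed in edgeR, beside 0.0546% of all tested genes (11 of 20143). None of the 10 had an unadjusted p below 0.05, which 1342 of all genes had, and DESeq2 also called 0 of 10. In MII eggs 0 of 10 passed in edgeR, again beside 0.0546% of all genes, with 1 of 10 and 1280 of all genes at an unadjusted p below 0.05, and DESeq2 called 0 of 10. The median log2 fold change of the 10 genes was 0.04 at the GV stage and -0.0068 at MII, beside 0.02 and 0.01 over all genes.

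No chaperone gene passed between genotypes. In GV oocytes Hspe1 was at 55.6 ± 2.56 CPM in WT and 61.4 ± 2.74 CPM in Null (n = 3 each), a log2 fold change of 0.14 with a 95% interval from -0.13 to 0.41. For Hspd1 the levels were 144 ± 3.35 and 159 ± 17.9 CPM (n = 3 each), and the change was 0.15, with an interval from -0.02 to 0.31. For both genes all 3 Null pools lay above all 3 WT pools, as they did for 6.83% of all genes. In MII eggs these genes overlapped between genotypes, with changes of -0.02 for Hspe1 and -0.06 for Hspd1. The intervals for Hspa9 ran from -0.23 to 0.15 at the GV stage and from -0.18 to 0.17 at MII, and those for Trap1 from -0.19 to 0.28 and from -0.16 to 0.28.

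Of the protease genes, Clpx was lower in all 3 GV Null pools (27.8, 26.5 and 23.4 CPM) than in the 3 GV WT pools (29.5, 29.0 and 29.2 CPM), as were 5.93% of all genes. Its log2 fold change was -0.17 (SE 0.09, 95% interval from -0.36 to 0.02, edgeR adjusted p = 0.777, the smallest among the 10 genes at this stage). Thus 3 of the 10 genes did not overlap between genotypes at the GV stage, beside 12.8% of all genes, and 0 of 10 did so in MII eggs, beside 6.07%. The intervals for Lonp1 ran from -0.43 to 0.12 at the GV stage and from -0.27 to 0.26 at MII. Those for Clpp, with its few reads, were the widest among chaperones and proteases and ran from -0.56 to 0.64 and from -1.07 to 0.19.

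These GV values moved with 2 pools. Without GV Null replicates 2 and 3, which leaves 1 pool assumed to vary like the others, the log2 fold change was 0.09 for Hspe1, 0.06 for Hspd1 and -0.07 for Clpx, and it changed sign to 0.06 for Lonp1. With the summed cumulus and granulosa markers as a covariate, it was 0.16 for Hspe1, 0.03 for Hspd1, -0.15 for Clpx and -0.03 for Lonp1. The sum includes Nr5a2 and Cyp19a1, which made up most of it in MII WT, so the covariate does not stand for surrounding cells alone. The part of RNA from surrounding cells in the GV values beyond this covariate was not tested.

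Of the transcription factor genes, Atf4 had the smallest adjusted p among the 10 genes in MII eggs. It stood at 212 ± 18.4 CPM in MII WT (n = 3) and 242 ± 26.9 CPM in MII Null (n = 4), and 3 of the 4 Null pools lay above the highest WT pool. The log2 fold change was 0.19 (SE 0.09, 95% interval from 0.01 to 0.38, edgeR unadjusted p = 0.0382, adjusted p = 0.772), so it did not pass. Over the alternatives tried, its log2 fold change ran from 0.13 to 0.27 and its adjusted p from 0.491 to 1.00. At the GV stage the change of Atf4 was 0.11, with an interval from -0.09 to 0.30.

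Ddit3 was at 10.3 ± 2.28 CPM in GV WT and 8.17 ± 1.01 CPM in GV Null (n = 3 each), a log2 fold change of -0.34 with a 95% interval from -0.79 to 0.12. In MII eggs its change was -0.0062, with an interval from -0.48 to 0.47. The intervals for Atf5 ran from -0.29 to 0.89 at the GV stage and from -0.86 to 0.42 at MII.

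**Figure D4:**
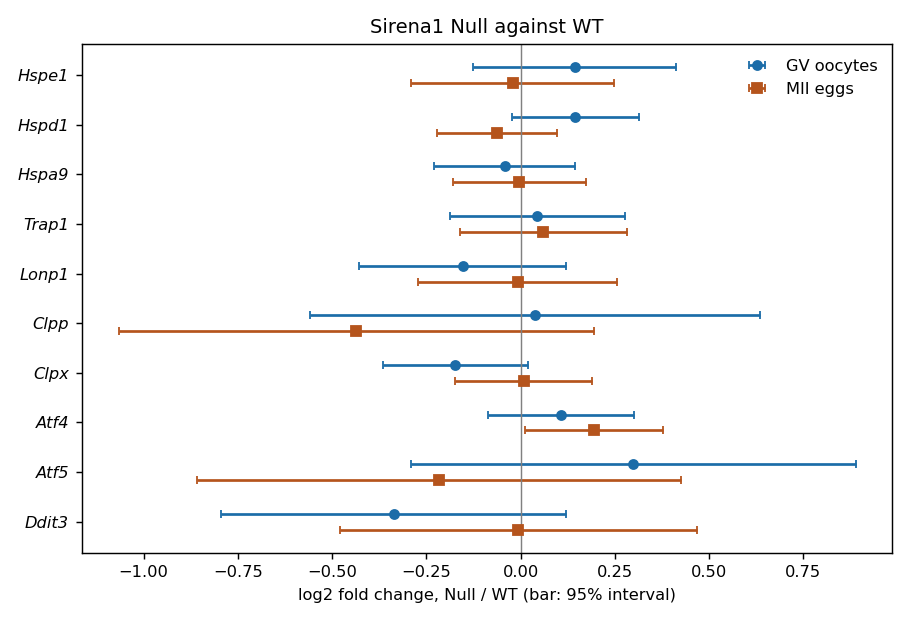
log2 fold change of each of the 10 genes in Null against WT, in GV oocytes (circles) and MII eggs (squares), with 95% intervals of the edgeR fit. All intervals include 0 except that of Atf4 in MII eggs, which runs from 0.01 to 0.38 and whose adjusted p is 0.772.

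The genotype effect was also compared between stages in the same fit. Of the 10 genes 0 passed in edgeR, beside 0.00496% of all tested genes (1 of 20143), and 0 had an unadjusted p below 0.05, which 681 of all genes had. DESeq2 called 0 of 10. The difference (MII minus GV) had the smallest unadjusted p for Hspd1, at -0.21 on the log2 scale (95% interval from -0.44 to 0.02, edgeR unadjusted p = 0.0753, adjusted p = 0.999). This is also the difference between the falls of Hspd1 with maturation in Null and in WT, given above. The widest interval was that of Atf5, from -1.39 to 0.36.

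Across the 13 pools, after the mean of each stage was subtracted, the 10 genes did not vary as one group. Over the 45 pairs Pearson's r of log2 CPM ran from -0.82 to 0.88 with a median of -0.05. Hspa9 and Lonp1, the import motor and the matrix protease, varied together (r = 0.88). Atf4 varied against both, with r = -0.82 to Lonp1 and -0.75 to Hspa9. MII Null replicate 1 had the lowest Hspa9 (122 CPM), the lowest Lonp1 (20.4 CPM) and the highest Atf4 (279 CPM) of the 13 pools. These r values were not computed without it. Among 5609 genes of at least 20 CPM on average, those most like Hspd1 were its own copy Hspd1-ps3 (0.86), Serinc3 (0.86), Aplp2 (0.83) and Angptl2 (0.82). Those most like Hspa9 were Kctd3 (0.92), Ubxn2a (0.91), Fam160b1 (0.91) and Ftsj3 (0.91), and those most like Atf4 were Mrps7 (0.90), Vkorc1 (0.90), Prdx1 (0.86) and Tmed10-ps (0.86). These are descriptions over 13 pools that share libraries and scaling. They include the 3 pools that stood apart on the first component, GV Null replicates 2 and 3 and MII Null replicate 4.

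The 10 genes were set beside 6 lists of related genes, of which 7 genes were not tested for lack of reads: Nupr1, Trib3, Batf2, Jdp2, Pck2, Fgf21 and Herpud1. Of 19 other mitochondrial chaperone partners, proteases and peptidases, 11 were lower and 2 higher at MII in WT, beside 22.8% and 19.9% of all genes, and 12 lower and 3 higher in Null, beside 26.9% and 22.1%. The median log2 fold changes were -0.47 and -0.58. With library totals, 11 were lower and 0 higher in WT, beside 5898 and 1831 of all 20143 genes. In Null, with the same scaling, 14 were lower and 1 higher, beside 7306 and 1985 of all genes. Parl, an inner membrane protease, fell from 253 ± 8.61 CPM in GV WT to 81.4 ± 6.20 CPM in MII WT (n = 3 each; log2 fold change -1.64, SE 0.10, edgeR adjusted p = 5.78e-10). The prohibitins Phb2 (-1.48) and Phb (-0.84), which form a scaffold in the same membrane, and the disaggregase Clpb (-0.68) passed as lower too. Oma1, an inner membrane protease activated by stress, passed as higher (0.35 in WT and 0.42 in Null), though with library totals it did not pass in WT (0.15).

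Of 18 genes of eIF2 and its control, 5 were higher and 4 lower in WT, where 19.9% and 22.8% of all genes were, with a median of 0.20. In Null 7 were higher and 4 lower, where 22.1% and 26.9% of all genes were, with a median of 0.08. With library totals, 1 was higher and 7 lower in WT, beside 1831 and 5898 of all 20143 genes. In Null, with the same scaling, 3 were higher and 6 lower, beside 1985 and 7306 of all genes. Eif2ak1, the eIF2 kinase HRI that relays mitochondrial stress, rose from 190.5 ± 0.524 to 238 ± 7.25 CPM in WT (n = 3 each; log2 fold change 0.32, SE 0.07, edgeR adjusted p = 0.00208). Ppp1r15a, which directs removal of the phosphate from eIF2, rose from 29.1 ± 1.69 to 40.9 ± 6.18 CPM (0.49, SE 0.12, edgeR adjusted p = 0.00222). Eif2b4, a subunit of the exchange factor that recharges eIF2, fell from 34.3 ± 1.45 to 15.1 ± 0.587 CPM (-1.18, SE 0.10, edgeR adjusted p = 2.29e-08). With library totals Eif2ak1 did not pass (0.12, adjusted p = 0.147). Impact, an inhibitor of the kinase Gcn2, passed as lower at -0.81.

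Of 8 tested partners of Atf4 and other stress transcription factors, 4 were higher and 1 lower in WT, where 19.9% and 22.8% of all genes were. In Null 4 were higher and 2 lower, where 22.1% and 26.9% of all genes were (medians 0.09 and 0.15). With library totals, 2 were higher and 1 lower in WT, beside 1831 and 5898 of all 20143 genes. In Null, with the same scaling, 3 were higher and 3 lower, beside 1985 and 7306 of all genes. The medians were then -0.11 and -0.08, where this scaling shifts the median of all genes by -0.20 and -0.23. Hsf1, the factor that binds heat shock elements such as those printed for Hspe1 and Hspd1, rose from 110.4 ± 7.26 to 191 ± 12.7 CPM in WT (n = 3 each; log2 fold change 0.79, SE 0.09, edgeR adjusted p = 2.00e-06). Atf2 (0.42) and Atf6 (0.35, and 0.15 without passing with library totals) also passed as higher, and Cebpb, a dimer partner of Atf4, passed as lower (-0.78 in WT and -1.20 in Null).

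Of 26 tested genes described as Atf4 targets, 8 were higher and 3 lower in WT, beside 19.9% and 22.8% of all genes, and 9 were higher and 7 lower in Null, beside 22.1% and 26.9%. The medians were 0.06 and 0.12. With library totals, 2 were higher and 4 lower in WT, beside 1831 and 5898 of all 20143 genes. In Null, with the same scaling, 5 were higher and 10 lower, beside 1985 and 7306 of all genes. The medians changed sign to -0.14 and -0.10, where this scaling shifts the median of all genes by -0.20 and -0.23. Mthfd2, a mitochondrial enzyme of folate metabolism, rose from 53.6 ± 3.58 to 75.4 ± 6.37 CPM in WT (n = 3 each; log2 fold change 0.49, SE 0.10, edgeR adjusted p = 0.000492). Slc3a2, a chain of amino acid transporters, was higher (0.43), while Phgdh, the first enzyme of serine synthesis, and Gars, the glycyl-tRNA synthetase, were lower (-0.61 and -0.52).

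Of the 20 cytosolic chaperones, 13 were lower and 2 higher at MII in WT, beside 22.8% and 19.9% of all genes, and 12 lower and 3 higher in Null, beside 26.9% and 22.1%. The medians were -0.44 and -0.49. With library totals, 13 were lower and 1 higher in WT, beside 5898 and 1831 of all 20143 genes. In Null, with the same scaling, 14 were lower and 1 higher, beside 7306 and 1985 of all genes. Cct3, a subunit of the cytosolic chaperonin, fell from 66.1 ± 3.13 to 18.0 ± 1.12 CPM in WT (n = 3 each; log2 fold change -1.88, SE 0.11, edgeR adjusted p = 3.07e-10). Another subunit, Cct5 (-1.13), and the Hsp70 co-chaperones Dnajb1 (-1.002) and Dnaja1 (-0.95) passed as lower. Of 13 tested ER chaperones and unfolded protein response genes, 3 were higher and 4 lower in WT, beside 19.9% and 22.8% of all genes, and 5 higher and 4 lower in Null, beside 22.1% and 26.9% (medians 0.04 and -0.04). With library totals, 2 were higher and 5 lower in WT, beside 1831 and 5898 of all 20143 genes, and the median changed sign to -0.16. In Null, with the same scaling, 3 were higher and 7 lower, beside 1985 and 7306 of all genes, with a median of -0.26. This scaling shifts the median of all genes by -0.20 in WT and -0.23 in Null. Dnajb11 (-0.58), Pdia6 (-0.55) and Calr (-0.52), which help fold proteins in the ER, passed as lower, and Pdia4 (0.47) passed as higher.

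**Figure D5:**
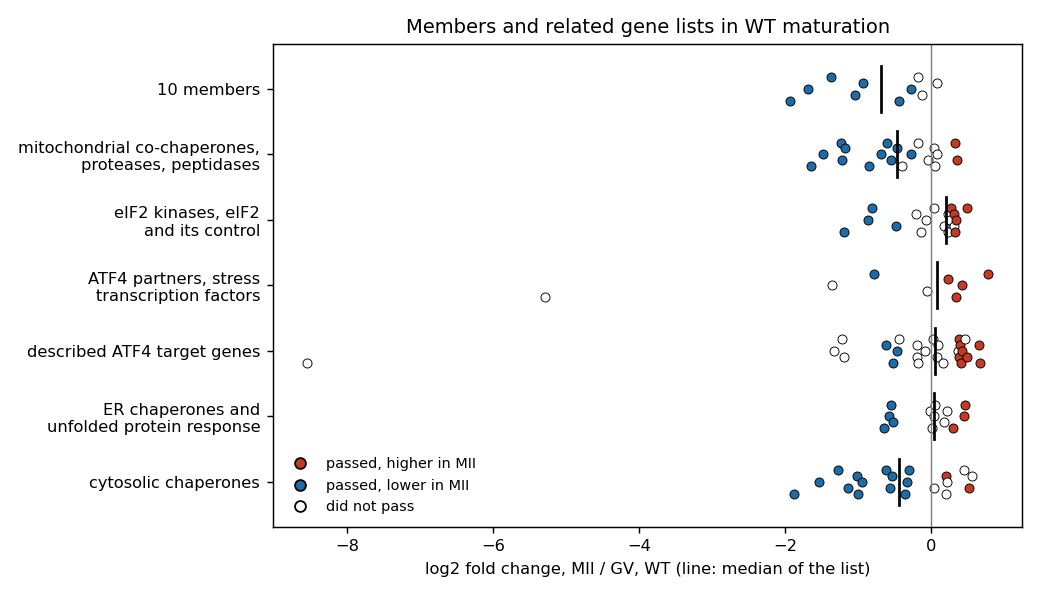
log2 fold change from GV to MII in WT pools for the 10 genes (top line) and the tested genes of 6 related lists. Points are genes, filled where they passed the test, and the vertical bar is the median, at -0.68 for the 10 genes; Slc38a2 (-8.55) and Jun (-5.29), far to the left, have 0 counts in all 3 MII WT pools, so their fitted fold depends on the fit's prior count.

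No gene of the 6 lists passed between genotypes at either stage, or in the difference of the genotype effect between stages. The smallest adjusted p in edgeR was that of Stc2 at the GV stage (log2 fold change -0.63, adjusted p = 0.685) and of Vldlr in MII eggs (-1.34, adjusted p = 0.319), both described Atf4 targets. Vldlr, a lipoprotein receptor, stood at 1.58 ± 0.454 CPM in MII WT (n = 3) and 0.625 ± 0.133 CPM in MII Null (n = 4). Stc2, a secreted glycoprotein, was also lower in MII Null eggs without passing (-0.66, adjusted p = 0.617).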

How the data were processed

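RNA-seq data were used from 13 pools, grouped by stage and genotype from the sample labels. The deposited values are raw counts of reads per gene, without normalization. Per the submitters' processing notes, STAR 2.5.3a and bedtools 2.26.0 were used with the build GRCm38.p6; per the labels' protocols, reads were 65 bases long, single-end, from Ovation libraries of poly(A) RNA. How reads were assigned to genes (the program, strandedness, reads with several matches) is not given in the sources used here. A Renilla spike-in (0.2 pg) named in the labels has no line among the 54232 genes, so no absolute scale was used.

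Counts of all 13 libraries were fitted in 1 model with 4 groups in edgeR 4.0.16 (R 4.3.3): TMM factors, filterByExpr, robust glmQLFit and glmQLFTest, two-sided, with Benjamini-Hochberg adjustment over 20143 genes per comparison and a threshold of 0.05. Comparisons were Null against WT at each stage, the difference of these effects, and MII against GV in each genotype. Replicates differed beyond counting noise in every group (chi-square per degree of freedom from 5.03 to 34.3). Count ratios were tested by exact permutation. Alternatives were RLE and library-total scaling, other filters, a replicate block, a marker covariate, only the groups compared, added pseudogene reads, omitted libraries, and DESeq2 1.42.0, with the scalings of the lists added after seeing the data; the code was tested on simulated data.

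Coordinates, promoters and synonyms are from RefSeq tables of GRCm38.p6; 54079 of 54232 IDs had a symbol. The 10 genes, the lists and the markers were chosen with earlier results of these data known. From each list at most 4 genes per comparison were named by the smallest unadjusted p among genes of at least 1 CPM on average, in WT for maturation; Oma1, Jun and Slc38a2 were named after their values were seen, the last 2 as outlying points of a plot. The genes most like Hspd1, Hspa9 and Atf4 were the 4 of highest r with a named symbol.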

Additional observations from a re-analysis of the deposited data

How the results depend on the processing

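The count of the 10 genes that passed ran from 6 to 9 with maturation in both genotypes over 15 alternatives in WT and 18 in Null, and was 0 for both genotype comparisons and their difference under every alternative run. No call changed direction. Single calls that changed beyond those given in the report were Hspa9 in WT, which passed with a filter of 5 CPM (-0.25) and with only the groups compared (-0.16), Hspa9 in Null with the filter (-0.24), and Clpx in WT with both (-0.31 and -0.22). The cause was not tested. The filter shifts the median of all genes by -0.13 in WT and -0.16 in Null. With it, Clpp and Atf5 were not tested. With pseudogene reads added to both genes, the ratio of Hspe1 to Hspd1 counts fell by 1.74 on the log2 scale.

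Values that did not pass and changed sign, as log2 fold changes, follow. For Null against WT in MII eggs, Hspa9 was 0.0140, Lonp1 0.00944 and Ddit3 0.0117 with RLE scaling, 0.0153, 0.0111 and 0.0120 with DESeq2, Hspa9 0.00444 and Ddit3 0.00161 without a filter, and Hspa9 0.00378 and Lonp1 0.00594 with the marker covariate. For maturation, Clpx in Null was 0.0158 with RLE scaling, 0.0198 without a filter and 0.0199 with DESeq2, and Atf4 in WT was -0.0469 with the 5 CPM filter and -0.117 with library totals (-0.0571 in Null). The difference of the effects for Trap1 was -0.00713 with library totals, -0.00946 with the 5 CPM filter and -0.0292 with the covariate, under which Hspa9 was 0.0261 at the GV stage and -0.0224 for the difference. Without GV Null replicates 2 and 3, the GV effect was 0.115 for Hspa9, 0.0648 for Lonp1 and -0.0128 for Atf4, and the difference was -0.117 for Hspa9, -0.151 for Trap1 and -0.0710 for Lonp1.

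Leaving out each library in turn, the GV genotype effect ran from -0.133 to 0.0190 for Hspa9, from -0.0547 to 0.131 for Trap1 and from -0.161 to 0.222 for Clpp. In MII eggs it ran from -0.142 to 0.0783 for Hspe1, from -0.0391 to 0.0666 for Hspa9, from -0.0389 to 0.129 for Trap1, from -0.0946 to 0.0963 for Lonp1, from -0.0249 to 0.0563 for Clpx, from -0.482 to 0.144 for Atf5 and from -0.214 to 0.188 for Ddit3. The difference ran from -0.0211 to 0.131 for Hspa9 and from -0.0789 to 0.115 for Trap1, and maturation in Null from -0.143 to 0.00985 for Hspa9 and from -0.0654 to 0.0599 for Clpx.

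Deviations from the group mean were weakly correlated between samples of the same replicate number (r from -0.13 to 0.22). Samples of unlike numbers were not compared, so this cannot decide whether those of the same number shared a batch. With a replicate block, 0 of the 10 genes passed in either genotype comparison or their difference and 7 in each maturation comparison. The Ddit3 effect in MII eggs was 0.141 and the Trap1 difference -0.0103 with the block. Only MII Null has a replicate 4, so the block in effect takes that pool out of the comparisons. Without that pool and without a block, the Ddit3 effect in MII eggs was 0.188. Over all genes the block gave 11, 12, 0, 8752 and 9872 calls in the order of the comparisons given in the methods, against 11, 11, 1, 8609 and 9867 without it.

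Counts of calls over all genes depended more on the settings. The GV genotype count was 644 without a filter, 25 with DESeq2, 6 with the covariate, 1 without GV Null replicates 2 and 3, and 6 to 139 without each library in turn, the 139 without GV Null replicate 1. The MII genotype count was 290 without a filter, 38 with DESeq2, 7 with the 5 CPM filter and 4 to 12 without each library. The count for the difference was 157 without a filter, 3 with DESeq2 and 0 to 1 without each library. With the 5 CPM filter, 5361 genes passed in WT maturation and 5794 in Null, and 5672 passed in Null without GV Null replicates 2 and 3. Clpp and Atf5 rest on the fewest reads among the 10 genes, with as few as 15 counts in a pool.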
